A study of Mus musculus with 11 samples.

Results

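The comparison set 5 arrays of hearts with both Gata4 alleles floxed and a Cre allele at Nkx2-5 (Gata4 flox/flox; Nkx2-5 cre/+, called CKO-labelled below) against 3 arrays of hearts with 1 floxed Gata4 allele and no Cre (Gata4 flox/+; Nkx2-5 +/+, the controls). They were chosen by the genotype in their titles and make up 8 of the series' 11 arrays. The other 3 arrays were double heterozygous (Gata4 flox/+; Nkx2-5 cre/+). Each array held RNA from pooled mouse hearts at embryonic day 9.5. Every group thus carried at least 1 floxed allele. Cre was present in the 8 CKO-labelled and double heterozygous arrays, where it occupies 1 Nkx2-5 allele, so the comparison with the controls joins the second floxed allele, Cre and the altered Nkx2-5 allele. Nkx2-5 Cre acts in heart muscle and in other descendants of the cardiac progenitors, and cells without a history of Nkx2-5 expression keep Gata4. The labels do not give the number of hearts in a pool or say whether pools came from separate litters, so the p-values speak only of the spread among these samples, and that spread may be technical.

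GATA4 is a zinc finger transcription factor that binds DNA at GATA letters and acts with Nkx2-5, Tbx5 and other factors in the early heart. It is known for roles in heart muscle growth, in the endocardial cushions and in the proepicardium, the cell cluster that gives rise to the epicardium. A heart of this stage holds muscle, endocardium, cushion cells, blood and attached mesothelium, and the arrays measured their RNA together. In such bulk samples fewer cells of a type and less RNA per cell cannot be told apart. The description centres on genes outside the lists of cardiac muscle, cardiac regulator, cell cycle and hypoxia genes that a study of this deletion would look at first.

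Values below are log2(intensity + 16) after quantile normalization unless stated, and a fold change on that scale understates the change of dim genes. The brighter of 2 Gata4 probe sets read 8.77, 9.09 and 9.09 in the controls and 9.53, 9.28, 9.45, 9.37 and 9.53 in the CKO-labelled arrays, a difference of 0.45 ± 0.097 (SE; adjusted p = 0.0321), and the dimmer one differed by 0.08 (adjusted p = 0.958). The dimmer probe set read 7.98, 7.98 and 8.15 in the controls and 8.81, 6.42, 8.65, 8.44 and 8.26 in the CKO-labelled arrays, so that CKO replicate 2 was far below every control and the other 4 arrays were above them. The double heterozygous arrays read 9.40, 9.21 and 9.33 on the brighter probe set and 8.65, 8.40 and 8.27 on the dimmer one. On both they lay above every control, so a higher reading was not particular to the CKO-labelled arrays. Mean Gata4 signal was thus not lower in the CKO-labelled than in the control arrays on either probe set. The sources used here do not say whether these probe sets lie in the floxed part of the gene, so the level does not check the labels. The call on the brighter probe set was lost in 12 of 22 alternative analyses, with the highest adjusted p without 1 array at 0.242 (control replicate 1 left out). Nkx2-5 read 9.84, 9.83 and 9.93 in the controls and 9.35, 9.59, 9.64, 8.78 and 9.32 in the CKO-labelled arrays (adjusted p = 0.099). Its double heterozygous arrays, at 9.54, 9.53 and 9.37, also lay below every control. Among the CKO-labelled arrays, replicate 2 stood apart in the actin signal of the 3' over the 5' end, 1.0 in log2 where the other 10 arrays gave 0.3 to 0.45. Replicate 3 was dimmer, with a mean intensity as deposited of 117.2, where the other arrays gave 166.4 to 175.6. The number of arrays limits the precision of every comparison.

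Of 45037 probe sets tested, 632 differed between CKO-labelled and control arrays at an adjusted p under 0.05 (limma with Benjamini-Hochberg adjustment, the rule behind every call below), which is 1.4% of them, with 377 higher and 255 lower. With 1 probe set for each of 18193 genes, 375 genes were called, or 2.06%, of which 218 (1.2% of all genes) were higher and 157 (0.863%) were lower. The cardiac, cell cycle and hypoxia lists together held 439 measured genes, of which 51 were called higher and 19 lower. The remaining 305 called genes, 167 higher and 138 lower, came from the 17754 genes outside those lists, of which they were 1.72%. Their median difference was 0.71 among those higher and -0.58 among those lower, against a median of -0.02 over all genes, and 31 rose and 10 fell at least 2-fold. The arrays of both groups did not overlap for 304 of the 305, and they did not overlap for 12.1% of all genes. Left-out arrays moved the count of 305 widely. It fell to 84, 89 and 92 without control replicates 1, 2 and 3, and to 133 without CKO replicate 5. Without double heterozygous replicate 1, which enters through the spread and the shared normalization only, the count fell to 165. It rose to 638 without CKO replicates 2 and 3 together. The between-array scaling mattered more for rises than for falls: on the deposited scale 13 higher and 27 lower genes were called, and with median centring 55 and 114.

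**Figure D1:**
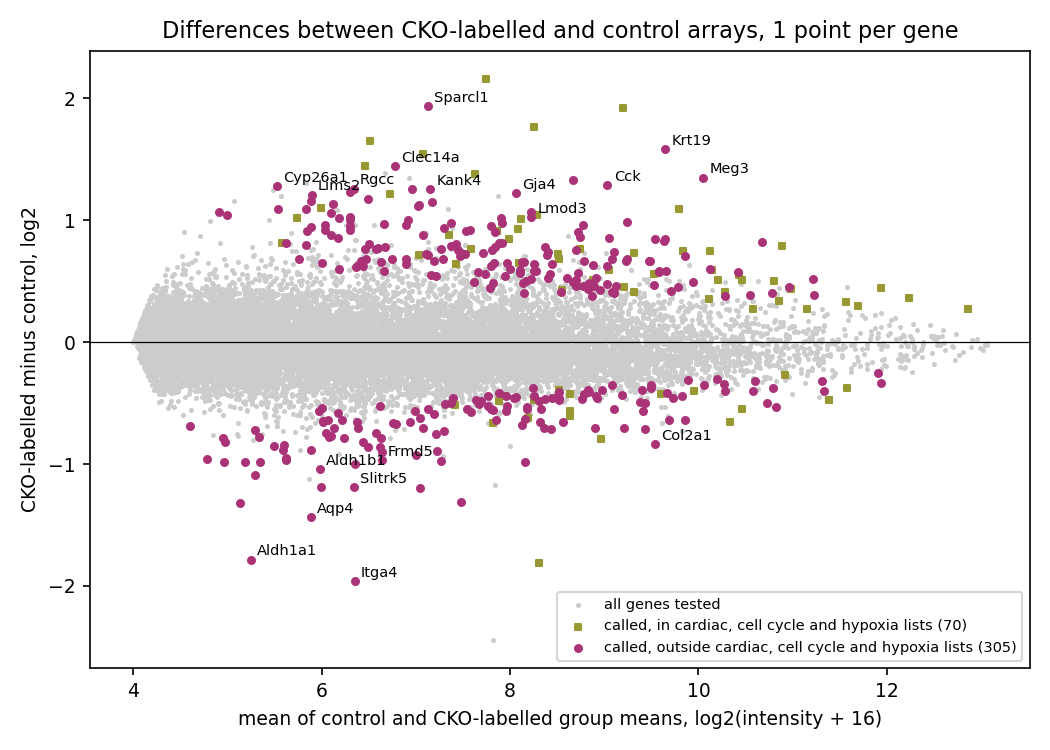
Each point is 1 of 18193 genes, with the mean of the control and CKO-labelled group means on the x axis (log2(intensity + 16)) and the CKO-labelled minus control difference on the y axis (log2). The 305 called genes outside the usual lists (purple circles) and the 70 within them (olive squares) run from Itga4 at -1.96 to Igfbp3, a hypoxia list gene, at 2.16. Genes with printed names are among those called in every one of 22 alternative analyses that gave them a value.

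A core of 27 of the 305 genes was called in every one of the 22 alternatives that gave it a value. The alternative limited to probe sets above the median level gives none for dimmer genes, here and in later mentions of every alternative. Of the 27, 11 were higher and 16 lower, and 3 of the 16 carry only clone names. These genes are described first, a choice made after their values were seen. Leading the rises was Sparcl1, which encodes a secreted matricellular protein of the SPARC family. It read 6.07, 6.32 and 6.08 in the controls and 8.19, 7.84, 7.78, 8.52 and 8.17 in the CKO-labelled arrays. The groups lay far apart, and Sparcl1 was 3.84-fold higher (log2 difference 1.94 ± 0.16 SE, adjusted p = 3.57e-05).

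Krt19, a keratin of simple epithelia, read 8.71, 9.09 and 8.78 in the controls and 10.29, 10.53, 10.35, 10.43 and 10.61 in the CKO-labelled arrays, a 3.00-fold rise (log2 difference 1.59 ± 0.099 SE, adjusted p = 1.69e-06). Its CKO-labelled values spanned only about as much as its control values. Clec14a, a C-type lectin of endothelial cells, rose 2.73-fold, from 6.10, 5.91 and 6.14 to 7.74, 7.46, 7.10, 7.62 and 7.58 (adjusted p = 0.000354). Gja4, the gap junction protein connexin 37 of arterial endothelium, rose 2.34-fold, from 7.36, 7.47 and 7.52 to 8.72, 8.99, 8.47, 8.44 and 8.77 (adjusted p = 0.00021). Both endothelial genes were higher in 5 of 5 CKO-labelled arrays than in any control array, a separation shared by nearly all called genes outside the usual lists.

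Cck encodes the peptide hormone cholecystokinin, better known from gut and brain. Its promoter and those of Krt8, Tcf21 and Itga4 are shown because these genes rose or fell with clear separation of the groups. They were also picked to include windows with and without a GATA match, so they do not represent the called genes. Outside the usual lists, 20% of windows of genes called higher and 19.6% of those called lower held a match, against 20.3% for measured genes. The windows are the 250 bases before the RefSeq transcription start (build GRCm38.p6), read 5′ to 3′ on the gene's strand, with capitals marking GATA letters. These were searched on both strands as AGATAA, as the form AGATAG that ends in another letter, as the form TGATAA that starts with another letter, and as the form TGATAG with both replaced. The Cck window is chr9:121495695-121495944 on the minus strand, with the match beginning at -189 from the start, and the Krt8 window is chr15:102004343-102004592 on the minus strand, with a match beginning at -239. The Tcf21 window is chr10:22820144-22820393 on the minus strand, with a match beginning at -31, and the Itga4 window, chr2:79255176-79255425 on the plus strand, holds no match.
Cck: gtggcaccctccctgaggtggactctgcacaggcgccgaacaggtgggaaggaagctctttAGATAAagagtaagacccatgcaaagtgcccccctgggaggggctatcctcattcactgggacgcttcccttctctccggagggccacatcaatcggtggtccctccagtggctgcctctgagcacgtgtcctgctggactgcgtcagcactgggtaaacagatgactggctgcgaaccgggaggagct
Krt8: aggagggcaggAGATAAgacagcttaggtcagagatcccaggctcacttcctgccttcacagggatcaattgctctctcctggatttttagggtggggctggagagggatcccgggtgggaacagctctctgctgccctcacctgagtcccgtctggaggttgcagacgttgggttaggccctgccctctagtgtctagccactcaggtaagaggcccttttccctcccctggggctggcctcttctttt
Tcf21: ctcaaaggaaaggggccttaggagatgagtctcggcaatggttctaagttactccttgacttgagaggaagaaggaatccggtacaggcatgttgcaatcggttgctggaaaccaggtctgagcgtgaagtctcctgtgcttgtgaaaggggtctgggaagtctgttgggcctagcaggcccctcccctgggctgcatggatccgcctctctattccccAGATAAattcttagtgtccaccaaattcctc
Itga4: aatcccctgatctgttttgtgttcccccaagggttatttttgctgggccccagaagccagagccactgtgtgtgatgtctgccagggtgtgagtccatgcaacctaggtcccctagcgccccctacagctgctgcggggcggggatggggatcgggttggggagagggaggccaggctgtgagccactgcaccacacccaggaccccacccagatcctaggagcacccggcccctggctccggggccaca

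Cck read 8.48, 8.47 and 8.22 in the controls and 9.91, 9.95, 9.41, 9.49 and 9.62 in the CKO-labelled arrays, a 2.44-fold rise (log2 difference 1.29 ± 0.12 SE, adjusted p = 9.75e-05). The double heterozygous arrays, at 9.34, 9.19 and 9.31, sat close to the CKO-labelled ones, and the direct difference between those groups was 0.40 (95% interval 0.13 to 0.66, adjusted p = 0.209). Cck differs in this from Krt19, for which the double heterozygous arrays read 9.07, 8.96 and 9.09 and the direct difference was 1.40 (95% interval 1.19 to 1.61, adjusted p = 1.69e-05).

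The other rises held in every alternative reached into signalling and the cytoskeleton. Meg3, a maternally expressed long non-coding RNA, was 2.55-fold higher (adjusted p = 8.39e-05), and Cyp26a1, an enzyme that degrades retinoic acid, was 2.43-fold higher (adjusted p = 0.000669). Rgcc, a complement-inducible regulator of the cell cycle, rose 2.40-fold and Kank4, a cytoskeletal scaffold of the Kank family, rose 2.39-fold. Lims2, a LIM-domain protein of focal adhesions, rose 2.31-fold, and Lmod3, a leiomodin of the thin filaments of striated muscle, rose 2.04-fold. Adjusted p was 0.00188 for Rgcc, 0.000136 for Kank4, 0.00154 for Lims2 and 0.000196 for Lmod3.

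Itga4, the alpha 4 integrin subunit that binds fibronectin and VCAM1 and is needed for the epicardium, had the largest fall of the called genes outside the usual lists. It read 7.24, 7.55 and 7.20 in the controls and 4.98, 4.94, 5.48, 6.18 and 5.28 in the CKO-labelled arrays, 3.88-fold lower (log2 difference -1.96 ± 0.25 SE, adjusted p = 0.00087), and all 5 of its probe sets were lower. CKO replicate 4 was the least reduced array and still lay below every control. Aldh1a1, which makes retinoic acid from retinaldehyde, read 6.10, 6.09 and 6.23 in the controls and 4.07, 4.02, 4.02, 5.44 and 4.23 in the CKO-labelled arrays. Apart from replicate 4, the CKO-labelled values stood at the floor that the offset sets (4 on this scale), so the 3.44-fold fall (adjusted p = 0.00457) depends on that offset. With an offset of 1 in place of 16 its log2 difference was -4.19, and with 64 it was -0.77.

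Aqp4, a water channel, read 6.48, 6.73 and 6.59 in the controls and 5.27, 5.05, 5.27, 5.29 and 4.97 in the CKO-labelled arrays, 2.70-fold lower (log2 difference -1.43 ± 0.14 SE, adjusted p = 0.000129). All 3 of its probe sets were lower. Slitrk5, a leucine-rich repeat membrane protein best known from neurons, fell 2.28-fold (adjusted p = 0.00126), and Aldh1b1, a mitochondrial aldehyde dehydrogenase, fell 2.05-fold (adjusted p = 0.00218). Frmd5, a FERM-domain protein, fell 1.95-fold and Zdhhc2, a palmitoyl transferase, fell 1.86-fold.

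Brighter genes with falls held in every alternative included matrix genes of the cushions and cartilage. Col2a1, the type II collagen chain, read 9.84, 9.92 and 10.10 in the controls and 9.14, 9.27, 9.17, 8.85 and 9.17 in the CKO-labelled arrays, 1.78-fold lower (adjusted p = 0.000514). Hapln1, the link protein that ties proteoglycans to hyaluronan in cardiac jelly, read 9.74, 9.78 and 9.84 against 9.10, 9.21, 9.11, 9.12 and 8.86, 1.64-fold lower (adjusted p = 0.000566), with all 4 probe sets lower. Emilin2, an elastic fibre glycoprotein, fell 1.63-fold (adjusted p = 0.00164). Both Col2a1 and Hapln1 were separated from the controls on every array, as were 304 of the 305 called genes outside the usual lists. Hapln1 was also lower than in the double heterozygous arrays (9.71, 9.54 and 9.65, with a difference of -0.56 and adjusted p = 0.00972).

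Outside the matrix, Acaa2, a thiolase of mitochondrial fatty acid oxidation, fell 1.63-fold (adjusted p = 0.00164). Ltv1, an assembly factor of the small ribosomal subunit, fell 1.56-fold, from 10.04, 10.04 and 9.94 to 9.55, 9.30, 9.59, 9.20 and 9.18 (adjusted p = 0.0045), and Tek, the angiopoietin receptor TIE2, fell 1.57-fold, from 8.94, 8.85 and 8.87 to 8.18, 8.18, 8.39, 8.28 and 8.14 (adjusted p = 0.0015). Tek was the only called gene of the endothelial list that was lower.

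**Figure D2:**
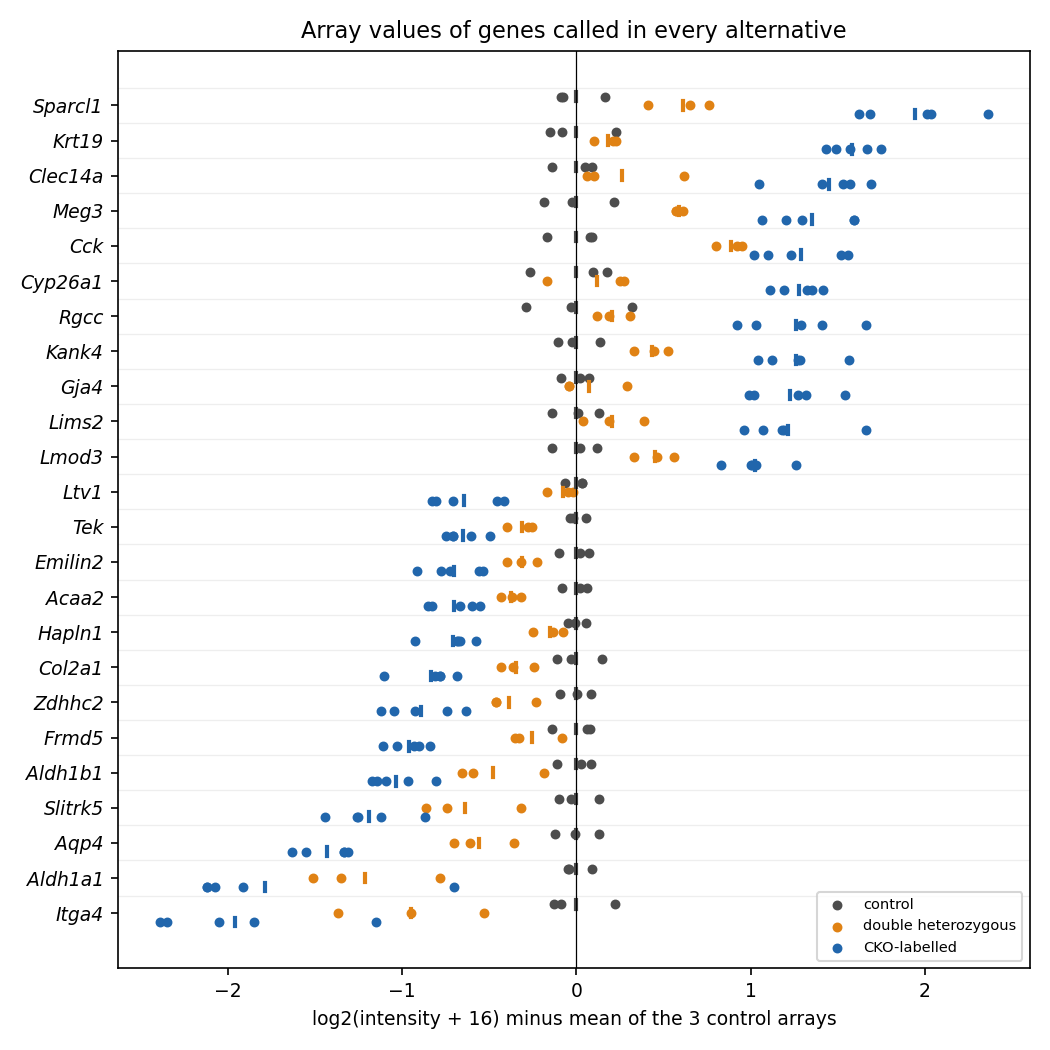
Points show single arrays for the 24 genes with a symbol that were called in every alternative that gave them a value. Values are log2(intensity + 16) minus the mean of the 3 control arrays, with short bars for group means. CKO-labelled arrays lie to the right of all controls for 11 genes, from Sparcl1 down to Lmod3, and to the left for 13, from Ltv1 to Itga4, and for Cck the double heterozygous arrays lie near the CKO-labelled ones.

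Several of the other large rises and falls were less stable, and each is given with the alternative that ended its call. Diras2, a Ras-like small GTPase, rose 2.39-fold (adjusted p = 0.00258) and lost its call on the deposited scale (adjusted p = 0.0609). Ndufa4l2, a mitochondrial protein known as a target of hypoxia-inducible factor although it was not on the hypoxia list, rose 2.35-fold, from 5.70, 5.97 and 5.37 to 6.48, 7.37, 6.92, 6.58 and 7.22 (adjusted p = 0.00692), and its adjusted p reached 0.0698 without control replicate 3. Mt2, a metal-binding metallothionein, rose 2.51-fold (adjusted p = 0.0192), with control values of 8.38, 8.41 and 7.24 and CKO-labelled values of 9.33, 8.76, 9.21, 9.89 and 9.49. One control array was low for Mt2, and without it the adjusted p was 0.105. The call on Mt2 was also lost on the deposited scale. H2-Ab1, a class II histocompatibility chain named after its values were seen, read 5.40, 5.67 and 4.80 and 6.41, 6.65, 6.33, 6.31 and 6.20 (fold 2.13, adjusted p = 0.00954), with an adjusted p of 0.0745 without control replicate 3.

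Among the falls, Stk26, a Ste20-like kinase, read 8.65, 8.74 and 8.54 in the controls and 7.45, 7.13, 7.94, 7.97 and 7.83 in the CKO-labelled arrays (1.97-fold lower, adjusted p = 0.00663), and the adjusted p reached 0.066 without control replicate 2. Rab20, a Rab GTPase of endosomes, was 1.98-fold lower (adjusted p = 0.00626, and 0.0593 without control replicate 3) and Cd200, an immunoglobulin family surface glycoprotein, was 1.98-fold lower (adjusted p = 0.0075, and 0.0734 without control replicate 2). Abcc9, the sulfonylurea receptor subunit of potassium channels, was 1.96-fold lower (adjusted p = 0.0102, and 0.0885 without control replicate 1). Agtr1a, the angiotensin II receptor, was 1.95-fold lower (adjusted p = 0.00497, and 0.0603 with the replicate number as a block). It was named after its values were seen, and its double heterozygous arrays, at 6.01, 6.09 and 5.96, stayed near the controls at 6.05, 6.13 and 6.13 (CKO-labelled minus double heterozygous -0.89, adjusted p = 0.0215).

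Endothelial genes were mostly higher in the CKO-labelled arrays. Of 27 measured endothelial and endocardial markers, 7 were called higher and 1 lower, 23 had a higher mean, and the median difference was 0.33 against -0.02 over all genes. Beside this and every list below, 1.2% of all genes were called higher and 0.863% lower, and 46.1% had a higher mean. The called rises were the vascular endothelial growth factor receptors Flt1 and Kdr, the transcription factors Sox7, Sox17 and Sox18, the endothelial cadherin Cdh5 and the junctional protein Ecscr. Flt1 read 7.01, 6.79 and 6.86 in the controls and 7.55, 8.02, 7.54, 8.27 and 7.95 in the CKO-labelled arrays (1.97-fold, adjusted p = 0.00444). Sox7 read 7.25, 7.38 and 7.34 and 8.27, 8.20, 7.92, 8.55 and 8.44 (1.93-fold, adjusted p = 0.00164), and Sox17 read 5.81, 5.53 and 5.38 and 6.49, 6.64, 6.52, 6.33 and 6.50 (1.90-fold, adjusted p = 0.00418). The 3 genes did not overlap between the groups, and their double heterozygous arrays read 7.25, 7.20 and 7.24 for Flt1, 7.46, 7.54 and 7.29 for Sox7 and 6.02, 5.64 and 5.79 for Sox17, between the groups or near the controls. Only 1 of 2 Sox7 probe sets was higher. Nfatc1, the transcription factor that marks endocardium, differed by 0.00 on 1 of 5 probe sets (adjusted p = 0.991), and Pecam1 and Emcn, general endothelial surface proteins, differed by 0.34 and 0.25 with adjusted p of 0.341 and 0.479.

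The summed level of the 27 markers, on the normalized intensity scale, was 5563 to 5972 in the controls, 5555 to 5995 in the double heterozygous arrays and 6615 to 7808 in the CKO-labelled arrays. The part of a higher share of endothelial cells in these differences was not tested. On the deposited scale none of the 7 rises was called and Tek still was, median centring left 3 rises called, and the list's median stayed positive at 0.18 and 0.17. Without 1 array the number of called rises ranged from 3 to 8.

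Genes that differ between arterial and venous endothelium were among the calls. A list of 27 such genes, put together after the called genes were seen and so no independent evidence, had 10 called higher, 0 called lower and a median of 0.41, and it shares Sox7, Sox17 and Sox18 with the list above. One of the 10, Aplnr, is better known from veins in the embryo. The list had 1 call at the deposited scale, 5 with median centring and 5 to 11 without 1 array. Cxcl12, a chemokine, read 7.71, 7.60 and 7.78 in the controls and 8.60, 8.94, 8.48, 8.96 and 8.82 in the CKO-labelled arrays (2.09-fold, adjusted p = 0.000382). Sema3g, a semaphorin of arterial endothelium, rose 2.24-fold (adjusted p = 0.00753, and 0.0608 without control replicate 2) and the Notch receptor Notch4 rose 1.75-fold (adjusted p = 0.0123, and 0.101 without control replicate 3). Vwf, which encodes von Willebrand factor of platelets and endothelium, read 6.63, 6.46 and 6.69 and 7.55, 8.03, 7.49, 7.81 and 7.86 (2.22-fold, adjusted p = 0.000842). Tmem100, an endothelial membrane protein downstream of BMP signalling and named after its values were seen, read 6.54, 6.29 and 6.43 and 7.65, 7.18, 7.24, 7.69 and 7.36 (2.01-fold, adjusted p = 0.00222). The double heterozygous arrays stayed at the control level for the last pair, at 6.54, 6.90 and 6.43 for Vwf and 6.31, 6.54 and 6.21 for Tmem100, with direct differences of 1.12 (adjusted p = 0.00321) and 1.07 (adjusted p = 0.00423). Of Cxcl12, Vwf and Tmem100, none kept its call on the deposited scale, where adjusted p was 0.0819, 0.0656 and 0.136.

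**Figure D3:**
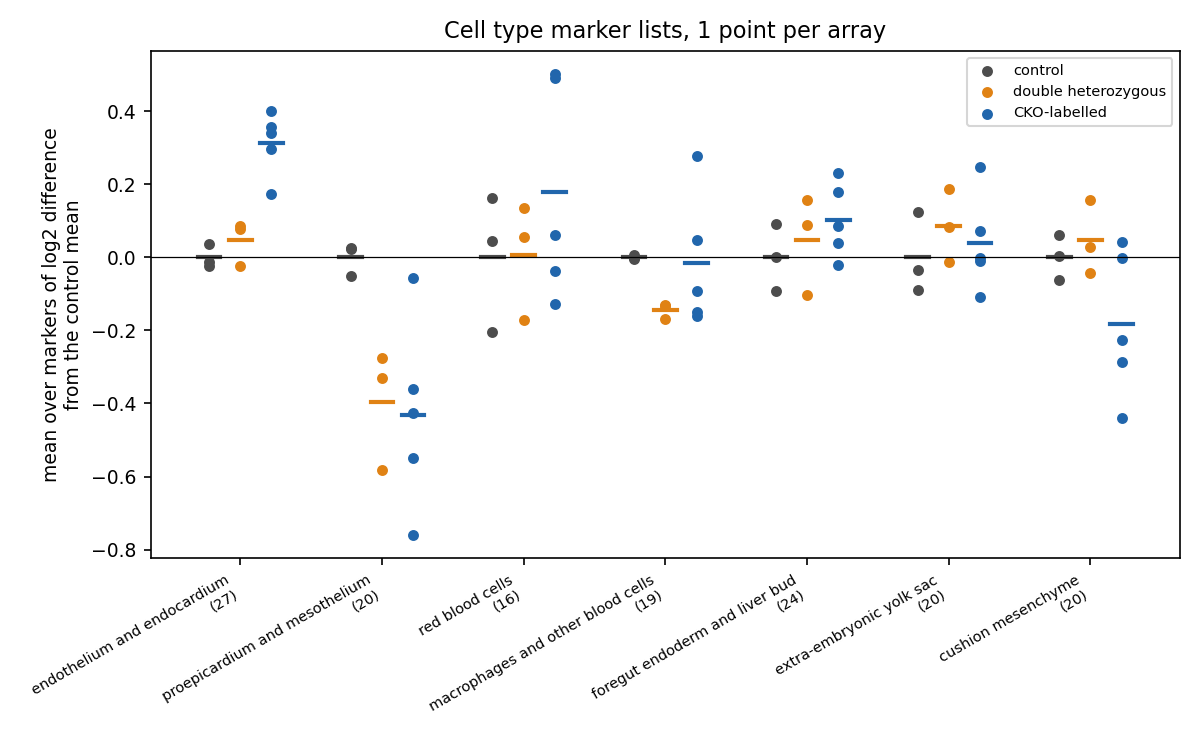
Each point is 1 array, at its mean log2 distance from the control average over the markers of a list, with the number of measured markers in brackets and short bars for group means. All 5 CKO-labelled arrays lie above the controls for the endothelial list (0.172 to 0.399) while for the proepicardial list they run from -0.761 to -0.057, with replicate 4 next to the lowest control (-0.05). There the double heterozygous arrays are also low (-0.583 to -0.276), and the groups overlap for red blood cells.

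The proepicardial and mesothelial list split. Of its 20 measured genes 5 fell, 3 rose, 16 had a lower mean, and the median was -0.42. The falls were Itga4, the transcription factors Tcf21 and Lhx9, the membrane protein Lrrn4 and the uroplakin Upk1b, and the rises were the keratins Krt8, Krt18 and Krt19, which simple epithelia share. Tcf21, a bHLH factor of epicardial cells, read 8.19, 8.14 and 8.08 in the controls and 6.55, 6.15, 7.36, 7.48 and 6.58 in the CKO-labelled arrays (2.48-fold lower, adjusted p = 0.0171). CKO replicates 3 and 4 were the highest of the 5. Lrrn4 read 7.42, 7.71 and 7.80 and 6.41, 5.88, 6.81, 6.74 and 6.39 (2.29-fold lower, adjusted p = 0.00619), and Upk1b was 2.00-fold lower (adjusted p = 0.0151). Left-out control arrays ended these calls, with adjusted p up to 0.113 for Tcf21 (without control replicate 1), 0.0601 for Lrrn4 and 0.111 for Upk1b (both without control replicate 3).

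Tbx18, a T-box factor of the proepicardium, read 8.45, 8.64 and 8.21 in the controls and 7.03, 6.47, 7.72, 8.27 and 6.80 in the CKO-labelled arrays (adjusted p = 0.0732), and Upk3b was 2.17-fold lower on average (adjusted p = 0.056), both outside the threshold. Wt1, a further defining marker, differed by 0.23 (adjusted p = 0.649), and Msln was under 16 in deposited intensity on every array. The double heterozygous means lay between the groups for Tcf21 (7.14, 7.76 and 7.66) and Itga4 (5.96, 6.80 and 6.38), with 1 array of each within the CKO-labelled range, and the double heterozygous arrays were about as low as the CKO-labelled arrays for Upk1b (5.84, 6.37 and 5.73; CKO-labelled minus double heterozygous -0.13, 95% interval -0.52 to 0.27). The summed level of the list was 3290 to 3528 in the controls, 2747 to 3360 in the double heterozygous and 3982 to 4820 in the CKO-labelled arrays, with the bright keratins included. How much mesothelium stayed attached to each pool of hearts is not given in the labels, and its part in these differences was not tested.

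Keratins were the only members of that list called higher. Krt18 read 9.12, 9.15 and 9.05 in the controls and 9.94, 10.16, 9.79, 9.76 and 10.13 in the CKO-labelled arrays (1.80-fold, adjusted p = 0.00082), and its partner Krt8 read 9.59, 9.44 and 9.49 and 10.04, 10.37, 10.15, 10.07 and 10.44 (1.63-fold, adjusted p = 0.00255). Of 48 measured keratin genes 4 were called higher and none lower, the fourth being the intestinal keratin Krt20 (1.55-fold, adjusted p = 0.0453, a call lost in 14 of 22 alternatives). On the deposited scale Krt19 was the 1 keratin of the 4 still called, with an adjusted p of 0.14 for Krt18 and 0.262 for Krt8. Foregut endoderm and liver bud markers, the nearest other epithelium, had 1 of 24 called higher, Sox17, which endothelium also expresses, and Foxa1 and Foxa2 were under 16 in deposited intensity on every array.

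Other cell types that a pool could hold showed few calls. Of 16 red blood cell genes and 19 macrophage and other blood cell genes none was called. The summed red cell level was 18330 to 22740 in the controls and 17520 to 25240 in the CKO-labelled arrays. Of the 16 red cell genes 14 had a higher mean, with a median of 0.18. Their mean distance from the control average was uneven, at 0.502 and 0.49 in CKO replicates 1 and 4. It was -0.129 to 0.062 in the other CKO-labelled arrays and -0.205 to 0.161 in the controls. The groups overlapped for both lists. The macrophage and blood sum was 875.7 to 941.1 in the controls and 774.7 to 1721 in the CKO-labelled arrays, and Aif1, Cd52 and Tyrobp, which define microglia and macrophages, were under 16 in deposited intensity on every array. Cushion mesenchyme genes had 1 of 20 called higher, the proteoglycan Vcan, 1 lower, Hapln1, and a median of -0.20, and yolk sac genes had 1 of 20 called higher, Sparc. Beside all these lists, 1.2% and 0.863% of all genes were called higher and lower.

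The called enzymes of retinoic acid synthesis and removal went in opposite directions. Retinoic acid is made from vitamin A by retinaldehyde dehydrogenases, is degraded by CYP26 enzymes, and patterns the inflow part of the early heart. Besides the fall of Aldh1a1, Cyp26a1 read 4.62, 5.06 and 4.98 in the controls and 6.30, 6.08, 6.24, 6.0 and 6.21 in the CKO-labelled arrays, with double heterozygous arrays at 5.16, 4.72 and 5.14 (CKO-labelled minus double heterozygous 1.16, adjusted p = 0.00453). Cyp26b1 rose 1.61-fold (adjusted p = 0.0383) and lost its call in 13 of 22 alternatives, with an adjusted p of 0.235 without control replicate 2. The main dehydrogenase of the early embryo, Aldh1a2, read 5.97, 5.89 and 6.53 in the controls and 5.61, 5.35, 5.66, 6.40 and 6.02 in the CKO-labelled arrays (adjusted p = 0.592), and the groups overlapped. The retinoic acid receptor gene Rarb, itself a known target, differed by 0.06 (adjusted p = 0.921), and in all 2 of 26 genes of a retinoic acid list made after seeing the calls were higher and 1 was lower. Of 72 cytochrome P450 genes, Cyp26a1 and Cyp26b1 were the 2 called, and of 20 aldehyde dehydrogenase genes, Aldh1a1 and Aldh1b1 were.

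Both members of some ligand and receptor pairs were called, a selection made after the calls were seen. Apela, a peptide ligand of the apelin receptor, read 5.86, 5.92 and 5.74 in the controls and 4.90, 4.50, 5.18, 5.20 and 4.47 in the CKO-labelled arrays (1.98-fold lower, adjusted p = 0.0236), whereas the receptor Aplnr rose from 7.32, 7.52 and 7.44 to 7.98, 8.37, 8.28, 8.07 and 8.22 (1.69-fold, adjusted p = 0.00611). The double heterozygous arrays followed the CKO-labelled ones for Apela (4.85, 5.34 and 4.84) and the controls for Aplnr (7.41, 7.21 and 7.68; CKO-labelled minus double heterozygous 0.75, adjusted p = 0.0147). Only 1 of 2 Apela probe sets was lower, its adjusted p reached 0.141 without control replicate 2, and that of Aplnr reached 0.0669 without control replicate 1. Ackr3, a receptor that takes up Cxcl12, fell 1.90-fold, from 7.61, 7.47 and 7.31 to 6.44, 5.95, 6.85, 6.98 and 6.46 (adjusted p = 0.0253, and 0.168 without control replicate 1), while Cxcl12 rose on 2 of 3 probe sets.

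In the Wnt group, 4 of 42 measured ligand, receptor and Dkk genes were called higher (9.52%, against 1.2% of all genes) and none lower. Fzd7, a Frizzled receptor, read 7.51, 7.65 and 7.03 in the controls and 8.18, 8.27, 8.40, 8.69 and 8.54 in the CKO-labelled arrays (2.03-fold, adjusted p = 0.00222), with double heterozygous arrays between at 8.04, 7.85 and 8.10. Its relative Fzd1 rose 1.72-fold (adjusted p = 0.0363), the inhibitor Dkk1 rose 1.58-fold (adjusted p = 0.0468) and the ligand Wnt1, near the floor in the controls (4.84, 4.13 and 4.15), read 6.01, 5.27, 5.35, 5.04 and 5.54 (adjusted p = 0.0346). At the deposited scale none of the 42 was called (Fzd7 adjusted p = 0.0849), with median centring 2 were, and without 1 array 1 to 5 were. The calls on Fzd1, Dkk1 and Wnt1 were lost without control replicate 1 or 2, with adjusted p up to 0.222, 0.256 and 0.208.

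A list of 70 measured genes of BMP and TGF-beta signalling was made by symbol after the calls were seen. Of these 70, 6 were called higher (8.57%) and none lower, 44 had a higher mean, and the median was 0.07. Over all genes 1.2% were called higher and 46.1% had a higher mean. Smad4, the shared effector of both pathways, read 10.02, 10.15 and 10.22 in the controls and 10.56, 10.84, 10.59, 10.76 and 10.76 in the CKO-labelled arrays (1.49-fold, adjusted p = 0.00258), and the inhibitor Smad7 read 7.32, 7.46 and 7.72 and 8.13, 8.30, 8.01, 8.56 and 8.60 (1.76-fold, adjusted p = 0.0129). The ligands Bmp5 and Bmp7 rose 1.44-fold and 1.38-fold (adjusted p = 0.027 and 0.0499), the pseudoreceptor Bambi rose 1.30-fold (adjusted p = 0.0204) and the target Id1 rose 1.33-fold (adjusted p = 0.0288). For Id1 the double heterozygous arrays, at 9.31, 9.22 and 9.18, were as high as the CKO-labelled ones, at 9.15, 9.41, 9.27, 9.26 and 9.35 (difference 0.05, 95% interval -0.13 to 0.24). Members that were not called included the ligands Bmp4, Bmp2 and Bmp10 (differences of 0.36, -0.15 and -0.34, adjusted p = 0.166, 0.508 and 0.706). None of the 6 genes was called at the deposited scale or with median centring, where the list's median was 0 and -0.01. Smad4 kept its call without any 1 array (adjusted p up to 0.0346), and the adjusted p reached 0.118, 0.161, 0.246, 0.143 and 0.204 for Smad7, Bmp5, Bmp7, Bambi and Id1.

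Collagen genes went both ways. Of 42 measured, 4 were called higher (9.52%) and 3 lower (7.14%), against 1.2% and 0.863% of all genes, with a median of 0. Col6a2, a chain of microfibrillar type VI collagen, read 6.94, 6.90 and 6.80 in the controls and 7.44, 7.74, 7.73, 7.63 and 7.67 in the CKO-labelled arrays (1.70-fold, adjusted p = 0.00168), and its partner chain Col6a1 rose 1.54-fold (adjusted p = 0.0479). Col8a1, of type VIII collagen in vessel walls, rose 2.08-fold (adjusted p = 0.0102). The falls were Col2a1, the transmembrane collagen Col13a1 (1.63-fold, adjusted p = 0.0383) and Col26a1 (1.80-fold, adjusted p = 0.0324). Without control replicate 1 the adjusted p was 0.309 for Col6a1 and 0.273 for Col13a1, without control replicate 2 it was 0.183 for Col26a1, and without control replicate 3 it was 0.0844 for Col8a1. The fourth rise, Col5a1, encodes a fibrillar collagen chain. On the deposited scale 0 collagens were called higher and 1 lower.

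In the cardiac jelly, where Hapln1 links proteoglycans to hyaluronan, the proteoglycan Vcan read 10.73, 10.76 and 10.80 in the controls and 11.18, 11.15, 11.10, 11.36 and 11.18 in the CKO-labelled arrays (1.35-fold higher, adjusted p = 0.00375). Its rise and the fall of Hapln1 thus stood side by side, although Vcan was not called on the deposited scale or with median centring (adjusted p = 0.592 and 0.233). The integrin Itga6, a laminin receptor subunit, read 10.71, 10.81 and 10.68 in the controls, 11.25, 11.16 and 11.12 in the double heterozygous and 11.21, 11.20, 11.05, 11.35 and 11.11 in the CKO-labelled arrays (1.37-fold over the controls, adjusted p = 0.00457). Both groups with Cre were high for it, and their difference was 0.01 (95% interval -0.15 to 0.16). Itga6 too was not called under either other scaling (adjusted p = 0.583 and 0.252).

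Several long non-coding RNAs of imprinted loci rose. Such RNAs are made from 1 parental allele and several silence neighbouring genes. Meg3 read 9.19, 9.35 and 9.59 in the controls, 9.95, 9.99 and 9.95 in the double heterozygous and 10.44, 10.97, 10.58, 10.67 and 10.97 in the CKO-labelled arrays. All 11 of its probe sets were higher, 10 of them called, and the 3 groups did not overlap. Mirg, from the same imprinted cluster as Meg3, rose 1.94-fold (adjusted p = 0.00797), and Rian, also from that cluster, read 6.26, 6.64 and 7.48 and 7.98, 7.16, 7.82, 8.09 and 8.37 (adjusted p = 0.0518). Snhg14 rose 1.89-fold (adjusted p = 0.024), Airn 1.63-fold (adjusted p = 0.0473) and Kcnq1ot1 1.97-fold (adjusted p = 0.0483). Kcnq1ot1 was the 1 called gene outside the usual lists whose groups overlapped. The list of 13 was assembled after these calls were seen. Of its 5 called genes only Meg3 kept its call at the deposited scale, and median centring kept 2. Without control replicate 1 the adjusted p was 0.0847 for Mirg, 0.185 for Snhg14 and 0.259 for Kcnq1ot1, while without control replicate 2 it was 0.24 for Airn. Malat1, an abundant nuclear RNA from no imprinted locus, read 8.60, 8.57 and 8.80 and 8.30, 8.91, 8.78, 10.38 and 10.58 (adjusted p = 0.501). Its CKO-labelled arrays were split, with replicates 4 and 5 high.

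Muscle genes best known from skeletal muscle were another set of rises. A list of 29 such genes, made after the calls were seen, had 12 called higher (41.4%, against 1.2% of all genes) and 0 called lower. In all 22 had a higher and 7 a lower mean. Of the 29, 5 were under 16 in deposited intensity on every array, namely Cavin4, Chrna1, Musk, Myf5 and Myf6. The list's median was 0.18, and 3 of the 29 are also on the usual lists. Lmod3 read 7.83, 7.73 and 7.57 in the controls, 8.17, 8.27 and 8.04 in the double heterozygous and 8.74, 8.97, 8.72, 8.71 and 8.54 in the CKO-labelled arrays. Tnnt3, the fast skeletal troponin T, read 5.74, 5.85 and 5.81 and 6.98, 6.99, 6.68, 6.42 and 6.93 (2.01-fold, adjusted p = 0.0042), and Myot, the Z-disc protein myotilin, read 4.89, 5.05 and 5.04 and 6.15, 6.17, 5.59, 6.40 and 6.11 (2.13-fold, adjusted p = 0.0075). Atp2a1, the calcium pump of fast skeletal muscle, rose 1.65-fold (adjusted p = 0.00827), and the kinase Dmpk rose 1.89-fold (adjusted p = 0.00245). The double heterozygous arrays were intermediate for Lmod3, Tnnt3 (6.43, 6.19 and 5.96) and Dmpk (7.53, 7.42 and 7.61). The calls on Myot and Atp2a1 ended without control replicates 1 and 3 (adjusted p = 0.0694 and 0.0755). On the deposited scale 1 of the 29 genes was called and with median centring 5 were.

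Most nuclear genes for mitochondrial ribosomal proteins had a slightly lower mean. Of 76 measured mitochondrial ribosomal protein genes, 72 had a lower mean in the CKO-labelled arrays and 4 were called lower and 0 higher, with a median of -0.24 against -0.02 over all genes. The arrays were uneven: the mean distance of the 76 genes from the control average was -0.094 and -0.115 in CKO replicates 1 and 2, near the -0.092 of double heterozygous replicate 3, and -0.204, -0.439 and -0.306 in CKO replicates 3 to 5. Mrps23, a small subunit protein, read 8.47, 8.50 and 8.44 in the controls and 8.16, 7.58, 7.75, 7.81 and 7.67 in the CKO-labelled arrays (1.60-fold lower, adjusted p = 0.0138). The large subunit genes Mrpl3, Mrpl19 and Mrpl36 were 1.30-fold, 1.38-fold and 1.39-fold lower (adjusted p = 0.0299, 0.0465 and 0.0439). All 4 calls ended on the deposited scale and when single control arrays were left out, with adjusted p without 1 array up to 0.0979, 0.213, 0.279 and 0.229 for Mrps23, Mrpl3, Mrpl19 and Mrpl36, while the list's median moved to -0.38 at the deposited scale and -0.39 after median centring. By contrast 0 of 57 cytosolic ribosomal protein genes were called and their median was -0.03 (-0.13 and -0.14 under the other scalings).

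Members of other mitochondrial groups, lists made after the calls were seen, fell in small numbers. Slc25a5, an exchanger of ADP and ATP across the inner membrane, read 12.15, 12.02 and 12.15 in the controls and 11.82, 11.74, 11.91, 11.67 and 11.73 in the CKO-labelled arrays (1.26-fold lower, adjusted p = 0.0171), all 8 probe sets were lower and 1 was called, and double heterozygous arrays stayed at 12.12, 12.21 and 12.08 (CKO-labelled minus double heterozygous -0.36, adjusted p = 0.0209). The carrier Slc25a13, the import protein Timm10, the complex I assembly factors Ndufaf2 and Ndufaf6, and Chchd10, a protein of the intermembrane space, were 1.55-fold, 1.41-fold, 1.46-fold, 1.5-fold and 1.45-fold lower. Each of these 6 calls ended without single control arrays, with adjusted p up to 0.13, 0.107, 0.219, 0.201, 0.185 and 0.149 in the order of Slc25a5, Slc25a13, Timm10, Ndufaf2, Ndufaf6 and Chchd10. The mean of 44 complex I genes lay at -0.014 and 0.079 in CKO replicates 1 and 2 and at -0.173, -0.271 and -0.169 in replicates 3 to 5. Of these 44 genes 2 were called lower and 2 higher, the latter being Ndufv3 and Ndufa4l2, of which Ndufa4l2 is listed by its symbol. The proteasome list had 1 of 49 called lower, Psma7 (median -0.15), ribosome biogenesis 1 of 59, Ltv1 (median -0.17), and nucleotide synthesis 2 of 27 lower, Atic and Prps1, and 1 higher, Adssl1 (median -0.18).

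**Figure D4:**
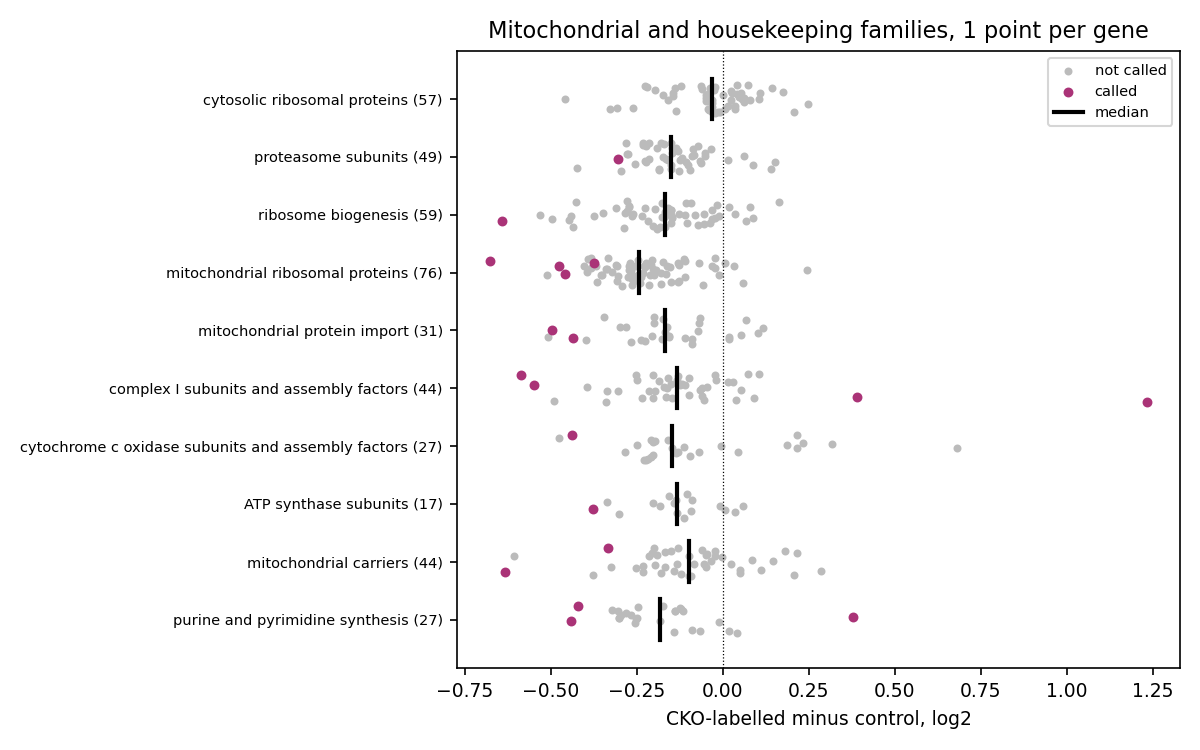
Each point is 1 gene, at its CKO-labelled minus control difference (log2), in mitochondrial and housekeeping families with the number of measured genes in brackets. Black bars are medians, purple points are called genes, vertical jitter has no meaning, and the mitochondrial ribosomal proteins have the lowest median (-0.24) while the cytosolic ones sit at -0.03.

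Several families defined by symbol had no calls, which is near the background of 2.06% for their size. None of 36 Hox genes, 39 olfactory receptors, 32 vomeronasal receptors, 67 F-box proteins or 51 ubiquitin-specific proteases was called, and 12 of the Hox genes, 18 of the olfactory and 22 of the vomeronasal receptors were under 16 in deposited intensity on every array. Of 82 chromatin regulators 2 were called higher, the demethylase Kdm5b (1.67-fold, adjusted p = 0.0124) and Kmt2e (1.42-fold, adjusted p = 0.00799), and the list's median changed sign with scaling, from 0.06 to -0.07 on the deposited scale. Of 18 circadian clock genes 2 were called higher, Ciart (1.57-fold, adjusted p = 0.0351) and Hlf (2.07-fold, adjusted p = 0.0353). Left-out control arrays ended all 4 of these calls, with adjusted p up to 0.105 for Kdm5b, 0.083 for Kmt2e, 0.197 for Ciart and 0.252 for Hlf. Of 22 cholesterol synthesis genes none was called. Ednrb and Erbb3, receptors of neural crest cells, were the 2 of 32 neural crest and pharyngeal arch genes called, both lower (1.64-fold and 1.72-fold, adjusted p = 0.0432 and 0.0171), and CKO replicate 4 stood near the controls for Ednrb, at 8.65 against 8.90, 8.81 and 8.66. Their adjusted p reached 0.25 without control replicate 1 for Ednrb and 0.131 without control replicate 3 for Erbb3.

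**Figure D5:**
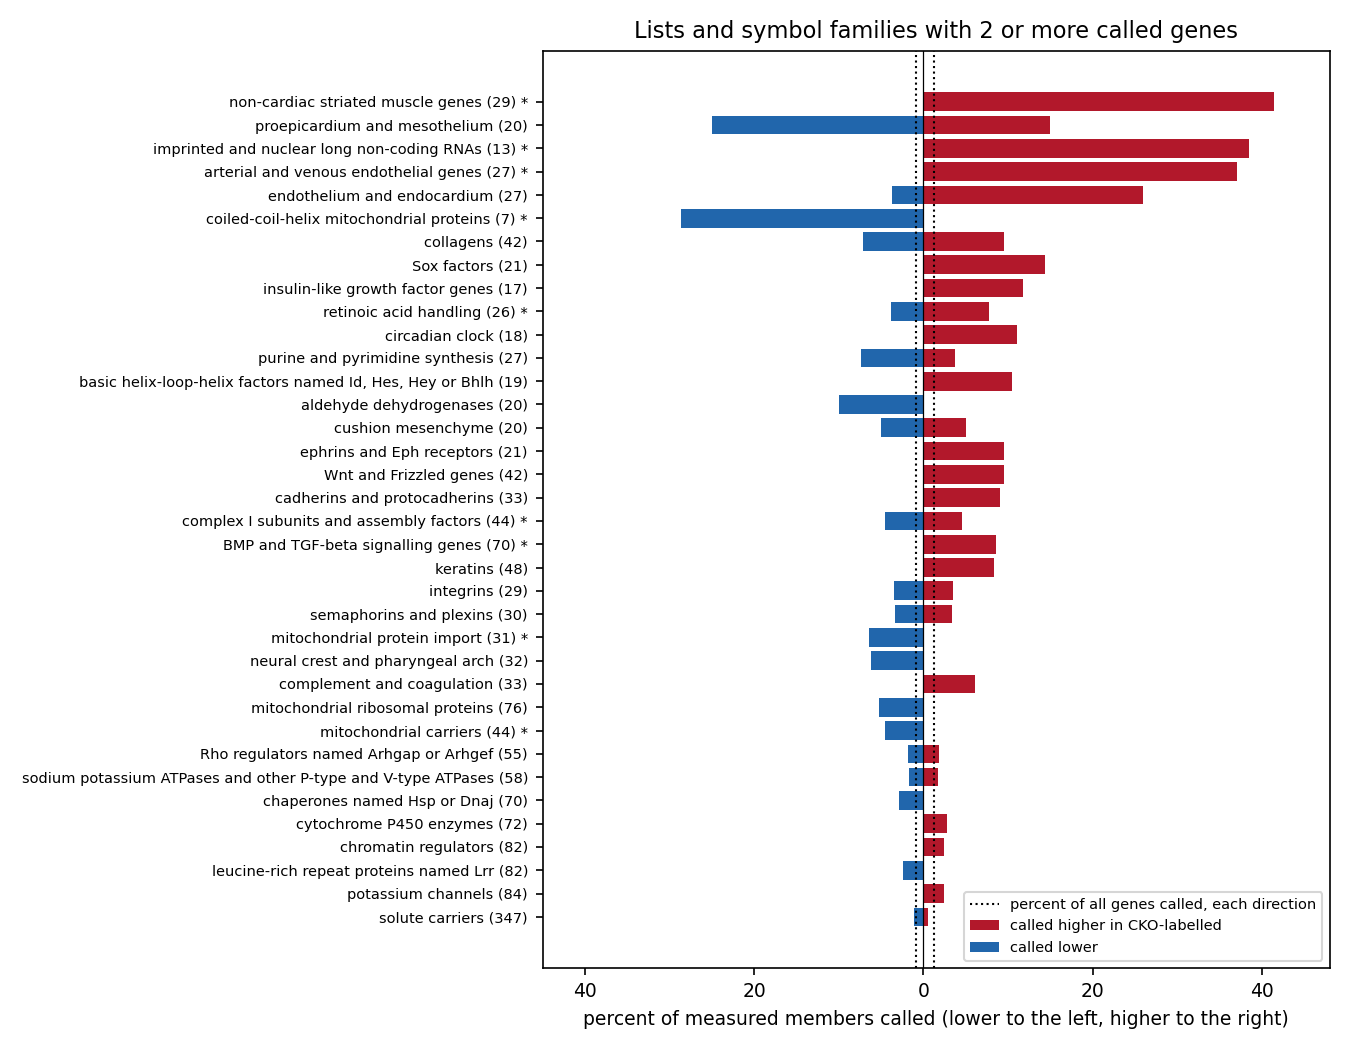
Bars give the percent of measured list members (number in brackets) called higher to the right and lower to the left in CKO-labelled against control arrays, for lists and symbol families with 2 or more calls. Dotted lines mark the 1.2% and 0.863% of all genes called in each direction, an asterisk marks lists made after the calls were seen, and the potassium channel family includes Kcnq1ot1, which shares only the start of its symbol.

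Among called genes outside the usual lists, GATA letters occurred in 24 of 120 windows of genes called higher (20%) and 21 of 107 windows of genes called lower (19.6%), against 20.3% of 14452 windows of measured genes and 27.1% of all 27025 windows of the RefSeq table. The hypoxia response core, ACGTG or GCGTG on either strand, occurred in 52.5% and 56.1% of the same called windows, which leave out the hypoxia list, against 49.7% of measured genes' windows and 38.6% of all windows. These shares were not tested. Each window reaches 250 bases before the start, so sites farther away were not looked at.

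Set directly against the double heterozygous arrays, which carry the same Cre allele and differ from the CKO-labelled ones by the second floxed allele, 94 genes were called, or 0.517% of all genes. Of these, 65 lay outside the usual lists, 50 higher and 15 lower in the CKO-labelled arrays. This comparison shares the CKO-labelled arrays with the one above, so the values are given side by side only. Gja4 had double heterozygous values of 7.41, 7.74 and 7.41, near its controls, and a direct difference of 1.16 (adjusted p = 0.00153). Clec14a had 6.15, 6.67 and 6.11 and a difference of 1.19 (adjusted p = 0.00453), and Sparcl1 had 6.81, 6.92 and 6.57, above its controls, and a difference of 1.33 (adjusted p = 0.00206). Among the falls, Aqp4 had 5.99, 6.24 and 5.90 and a difference of -0.87 (adjusted p = 0.0136), Frmd5 a difference of -0.71 (adjusted p = 0.0194) and Ltv1 a difference of -0.57 (adjusted p = 0.022). For Itga4, Aldh1a1 and Slitrk5 the direct differences of -1.01, -0.57 and -0.55 did not pass the threshold (adjusted p = 0.116, 0.448 and 0.176; 95% intervals -1.54 to -0.47, -1.17 to 0.03 and -0.89 to -0.21), and their double heterozygous arrays lay between or near the CKO-labelled values, at 4.63, 5.36 and 4.79 for Aldh1a1. The count of 65 also depended on single arrays. It ranged from 5 without double heterozygous replicate 1 to 183 without CKO replicate 3. Between double heterozygous and control arrays, 0 of 45037 probe sets were called by limma, with a smallest adjusted p of 0.0977. An unadjusted p under 0.05 was reached by 1435 of these probe sets, or only 3.19%.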

How the data were processed

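RNA of pooled embryonic day 9.5 hearts, extracted with TRIzol and amplified from a small input with the NuGen Ovation kit, was hybridized to 1-colour Affymetrix arrays per the labels' protocols. The deposited table holds 1 linear intensity per probe set and array, made by the authors with PLIER per the submitters' processing notes, and any scaling beyond that was not given in the sources used here. The offset of 16 was added before log2. Because the array medians spanned 0.465 on the log2 scale, the arrays were then quantile normalized.

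Probe sets were fitted over all 11 arrays in 3 groups, which share 1 estimate of the spread, with limma 3.58.1 (R 4.3.3; lmFit and eBayes with an intensity trend) and Benjamini-Hochberg adjustment over 45037 probe sets, after 64 control probe sets were left out. Python 3.11.15, pandas 2.3.3 and matplotlib 3.10.9 served for promoters and figures. Platform annotation gave 34945 probe sets 1 symbol, 932 several and 9160 none. A gene was represented by its brightest probe set, passing over those named as shared (_x_at, _s_at) where another existed, which gave 18193 genes. The fitting steps were tested on simulated data with independent normal noise and no differences in quality or scale between arrays. That test therefore does not bear on how the counts depend on single arrays or scaling. With these numbers of arrays precision is limited, and depth has no meaning for intensities.

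The genes and lists were chosen with earlier results of these data known. Genes were named as the 12 largest rises and falls among calls outside the usual lists whose groups did not overlap (clone names passed over), the 6 largest each way among bright genes, and up to 4 per list. Genes named beyond this rule, such as Agtr1a, H2-Ab1, Tmem100, Ackr3, Aplnr, Smad4, Smad7, Bmp5, Bmp7, Bambi, Col6a1, Col13a1, Col26a1, Notch4, Lims2, Lmod3, Frmd5, Zdhhc2, Emilin2, Tnnt3, Myot, Dmpk, Mirg, Snhg14, Airn, Timm10 and Chchd10, were picked after their values were seen. Alternatives changed the offset, scaling, filter, probe set rule, arrays fitted, trend, array weights and replicate block, and left out arrays. Replicate numbers recur between groups. Over all probe sets the deviations of same-numbered arrays from their group means correlated at -0.056 to 0.15. The arrays were fitted as unpaired. So broad a correlation cannot show whether same numbers mean a shared litter or batch, which the labels do not give.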

Additional observations from a re-analysis of the deposited data

Results flagged for a closer look

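Of 107 named genes, 3 had 1 CKO-labelled array standing apart from the other 4 by Dixon's rule, and chance gives about 1 in 20, or 5. Aldh1a1 read 5.44 in CKO replicate 4 against 4.02 to 4.23 in the other 4 CKO-labelled arrays and 6.09 to 6.23 in the controls. Kmt2e, a chromatin regulator, read 9.11 in CKO replicate 4 against 8.89 to 8.95 in the others and 8.38 to 8.53 in the controls. Col5a1, a fibrillar collagen chain, read 9.27 in CKO replicate 2 against 8.96 to 9.03 in the others and 8.46 to 8.71 in the controls.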

How the results depend on the processing

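None of the 305 called genes changed sign in any of the 22 alternatives that gave it a value. The groups did not overlap for 304 of them, so fits that only left out arrays could hardly reverse a sign. The lack of sign changes is therefore little evidence of stability. The number of calls moved widely, and the cause was not tested. The 632 probe sets (59.7% higher) became 92 on the deposited scale (48.9% higher), 362 with median centring (39.2% higher), 263 with the CKO and control arrays only, 281 without the intensity trend, 2393 with array weights and 1362 without CKO replicates 2 and 3, and ranged from 168 to 897 without 1 array. The 305 genes (54.8% higher) became 40 and 169 under those scalings (32.5% higher in both), 125, 139, 1120 and 638, and ranged from 84 to 431. The 65 genes of the comparison with double heterozygous arrays became 3, 26, 25, 290 and 303 on the deposited scale, with median centring, without the trend, with weights and without CKO replicates 2 and 3, and 99 among probe sets above the median level. They ranged from 5 to 183, and the fit of 8 arrays gives no value for them. With the replicate number as a block the 3 counts were 265, 133 and 26, and whether the numbers pair the arrays is not known. The median of all genes was -0.02, and -0.07 and -0.079 under the deposited and centred scales. Of the 305 genes, 67 were called in every fit without 1 array and 295 without CKO replicates 2 and 3.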

Other observations

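The largest mean fall of any gene did not pass the threshold. Rpgrip1, which encodes a photoreceptor cilium protein, averaged 9.04 in the control, 8.85 in the double heterozygous and 6.60 in the CKO-labelled arrays, a difference of -2.44 ± 0.70 (SE, adjusted p = 0.114). Kbtbd11, a kelch-domain protein, averaged 5.18, 5.12 and 6.48 in the same order, a difference of 1.31 ± 0.31 (SE, adjusted p = 0.0533). Other differences over 1 on the log2 scale with a wide spread were those of A2m, a protease inhibitor (1.38 ± 0.56, SE, adjusted p = 0.292), Lgals2, a galectin (1.34 ± 0.48, SE, adjusted p = 0.214), and Star, which carries cholesterol into mitochondria (1.25 ± 0.53, SE, adjusted p = 0.309). These genes were picked after their values were seen.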
